A study of Homo sapiens with 16 samples.

Results

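Batch 2 of this series is 4 RNA-seq libraries of the human neuroblastoma line SK-N-BE(2), 1 from each of 4 groups of cells, out of 16 libraries in all. The other 12 libraries are batches 1, 3 and 4 of the same 4 groups, with 4 libraries per batch. SK-N-BE(2) carries many copies of MYCN, and the deposited column names call the line BE2c. The 4 groups are untransfected cells labelled WT, cells transfected with full-length HIF-2α (FL), and cells transfected with 1 of a pair of altered forms. These forms are ΔN-CTAD and Δc-IDR in the design text and NCTAD and cIDR in the genotype labels. In the deposited columns the untransfected cells are CTRL, FL is WT and NCTAD is NTAD, while WT always means the untransfected cells here. The Δ is taken to mean that the named region was deleted. All groups grew in DMEM with 10% serum at 37 °C and 21% oxygen, per the labels, so no group was placed in low oxygen. The labels give the replicate number also as a batch. They do not say whether a batch is a culture, an extraction or a library preparation, and they name neither the vector, the time after transfection nor any empty vector in WT.

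Batch 2 was chosen by measured values of these same libraries. In earlier results from these data the main axis of variation set its 4 libraries apart from the other 12, with genes of the low-oxygen response among those that differed, and the batch was described as hypoxia-like. The contrast of batch 2 with batches 1, 3 and 4 is therefore described here with fold changes and overlaps and with no test. The 4 libraries also come from 1 batch and are not independent replicates of a batch effect. A gene is called higher in batch 2 when its log2 fold change was at least 1 and all 4 batch 2 libraries lay above all 12 others. It is called lower when the log2 fold change was -1 or less and all 4 lay below. The fold change comes from an edgeR fit with the construct group and batch 2 as terms, its error is the standard error (SE), and levels are CPM, counts per 1 M counts.

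Cells sense oxygen through hydroxylases that mark the α subunits of the hypoxia-inducible factors, HIF-1α and HIF-2α, for destruction by VHL. When oxygen is low the α subunits persist, pair with ARNT and turn on genes for glucose breakdown, mitochondrial sparing, blood vessel growth and matrix hydroxylation, at sites with the core ACGTG. HIF-2α, encoded by EPAS1, is studied in neuroblastoma as a marker of immature cells near blood vessels. A separate route, the integrated stress response, raises translation of ATF4 when amino acids run short or the endoplasmic reticulum is stressed, and ATF4 with C/EBP partners induces genes of amino acid supply at sites such as TGATGNAAN. Several genes, among them VEGFA, DDIT4 and STC2, answer to more than 1 of these routes.

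Totals ran from 47.8 to 55.3 M counts in batch 2 and from 38.6 to 56.1 M in the other batches. More genes had at least 1 count in batch 2, 27145 to 27325 against 24662 to 26388, with no overlap. Mitochondrial transcripts took 6.76 to 7.38% of the counts in batch 2 and 2.55 to 10.3% elsewhere. Reads of EPAS1 checked the labels: it stood at 13.0 to 28.1 CPM in the 4 WT libraries and at 1320 to 5852 CPM in the 12 transfected ones.

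Among 19530 genes tested, 1006 were higher in batch 2 (5.15%) and 124 were lower (0.635%). Without the 2-fold limit, all 4 batch 2 libraries lay above the other 12 for 2812 genes (14.4%) and below them for 2857 (14.6%). By the same rule, 57 genes were higher or lower in batch 1 (0.292%), 7 in batch 3 (0.0358%) and 9 in batch 4 (0.0461%). The median log2 fold change over all genes was 0.03. The genes called higher were mostly weakly expressed: their median level was -0.14 log2 CPM, against 3.33 for all genes tested. Of the 1006 higher genes, 676 had a mean level under 1 log2 CPM, and 527 of these were under 0. Among the 12929 genes at or above 1, 330 were higher and 78 lower, while 1888 lay above and 2780 below without the fold limit. The larger number of genes detected in batch 2 moves with the weakly expressed genes, and its part in their count was not tested. Among genes at or above 1 log2 CPM, the share called higher was 0.727% among those with the lowest GC content and 5.28% among those with the highest, with the genes split into 4 equal parts. The part of GC content was not tested.

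**Figure D1:**
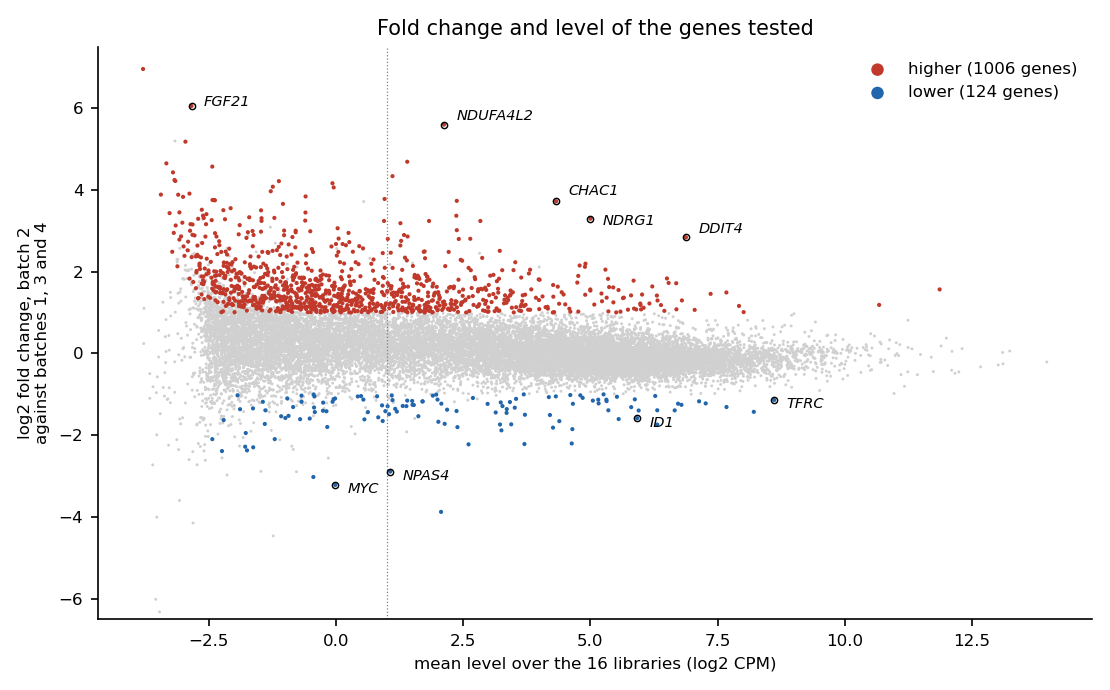
Log2 fold change of batch 2 against the other batches (y axis) and mean level over the 16 libraries (x axis, log2 CPM) for the genes tested, with 17 genes outside the plotted range. Red points are the 1006 higher genes, blue points the 124 lower ones and the dotted line marks 1 log2 CPM. Most red points lie left of that line, and the named NDUFA4L2, CHAC1, NDRG1 and DDIT4 lie to its right.

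The low-oxygen genes are described from the sensors to the targets. HIF1A and EPAS1, which encode the main α subunits, were called neither higher nor lower. HIF1A stood at 409, 383, 374 and 348 CPM in the WT, FL, NCTAD and cIDR libraries of batch 2 and at 239 to 406 CPM (median 367) in the other 12, a log2 fold change of 0.07 ± 0.09. The groups overlap. EPAS1 in the untransfected WT cells was 28.1 CPM in batch 2 and 13.0, 17.3 and 14.3 CPM in batches 1, 3 and 4, so that batch 2 was the highest of the 4. In the transfected cells it was 2001 CPM in FL against 1691 to 3580, 1320 in NCTAD against 2203 to 4228, and 2189 in cIDR against 4078 to 5852. EPAS1 was thus lowest in batch 2 for both altered forms and within the range of the others for FL. Of 13 genes of oxygen sensing and HIF feedback, 1 was higher (7.69%, near the 5.15% of all genes), HIF3A, at 3.09 to 4.70 CPM against 0.0965 to 0.610. EGLN3, a HIF-induced prolyl hydroxylase, lay above without reaching 2-fold (0.76 ± 0.07), as did VHL (0.22), HIF1AN (0.20) and CITED2 (0.48). ARNT2 lay below (-0.54), and EGLN1, EGLN2 and ARNT overlapped. The median of the 13 was 0.15.

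Genes that spare mitochondrial oxygen use held some of the largest differences. Of 12 such genes, 5 were higher (41.7%, beside 5.15% of all genes), none was lower and the median was 1.05. The promoters of BNIP3 and of DDIT4, an inhibitor of mTORC1, are shown because both genes were high in all 4 batch 2 libraries and both windows hold ACGTG. The windows are RefSeq sequence of GRCh38.p14 from 250 bases before to 50 bases after the start of the gene, at chr10:131981874-131982173 (minus strand) for BNIP3 and chr10:72273674-72273973 (plus strand) for DDIT4. Capitals mark ACGTG with any bases that overlap its reverse match.
BNIP3: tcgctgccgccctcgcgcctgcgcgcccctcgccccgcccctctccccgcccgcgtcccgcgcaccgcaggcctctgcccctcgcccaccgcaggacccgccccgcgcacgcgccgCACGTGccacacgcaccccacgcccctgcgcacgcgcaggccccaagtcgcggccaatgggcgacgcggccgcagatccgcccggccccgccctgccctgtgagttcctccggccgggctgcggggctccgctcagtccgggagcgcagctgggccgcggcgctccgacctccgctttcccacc
DDIT4: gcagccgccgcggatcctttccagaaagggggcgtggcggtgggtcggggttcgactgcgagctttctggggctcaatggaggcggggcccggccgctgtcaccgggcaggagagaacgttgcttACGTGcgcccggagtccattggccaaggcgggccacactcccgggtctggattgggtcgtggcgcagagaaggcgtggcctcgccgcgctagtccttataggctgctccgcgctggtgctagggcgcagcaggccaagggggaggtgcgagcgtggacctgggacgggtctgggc
The match in BNIP3 begins 134 bases before the start and is the palindrome CACGTG, which holds ACGTG on both strands. The match in DDIT4 begins 125 bases before the start. Searched on both strands, ACGTG occurred in 36 of the 77 promoters found for the 96 tested genes of 6 low-oxygen lists (46.8%), and in 21.6% of all 27305 promoters of the table. Within these lists it occurred in 11 of 27 promoters of members called higher and in 25 of 50 promoters of the others. Among tested genes at 1 log2 CPM or more the share was 27.6%. Fewer than 80% of the members called higher (73.0%) and of those tested genes (74.2%) had a promoter in the table, so comparisons with them are void. The table holds a promoter for 60.7% of all genes tested, and the share over all its promoters describes the table and not the genes tested. A match describes letters and not a bound site.

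BNIP3, a mitophagy receptor, stood at 191, 211, 221 and 298 CPM in the WT, FL, NCTAD and cIDR libraries of batch 2 and at 63.5 to 75.9 CPM (median 68.7) elsewhere, a log2 fold change of 1.73 ± 0.06. All 4 batch 2 libraries lay well above the other 12, and cIDR was the highest. PDK1, the kinase that shuts pyruvate out of the citric acid cycle, was 19.8, 25.6, 25.6 and 38.8 CPM against 2.73 to 5.28 (median 3.64), a log2 fold change of 2.81 ± 0.10. NDUFA4L2, a HIF-induced relative of a respiratory chain subunit, was 63.4, 75.8, 75.5 and 143 CPM against 0.104 to 16.8 (median 1.30), a log2 fold change of 5.60 ± 0.34. Outside batch 2 the levels of NDUFA4L2 differed by group, from 0.104 to 0.549 CPM in WT to 8.02 to 16.8 CPM in cIDR. In the other 2 groups they were 0.849 to 1.02 (FL) and 1.59 to 1.96 (NCTAD). The remaining higher members were BNIP3L (1.62), the second mitophagy receptor, and FAM162A (1.36). HIGD1A (0.06), PDP2 (-0.09) and FUNDC1 (-0.16) overlapped. COX4I2, a low-oxygen form of a cytochrome c oxidase subunit, also overlapped over the 16 libraries (2.33 ± 0.32), though within each group batch 2 was the highest, at 3.05 CPM in WT against 0.121 to 0.355 and at 9.08 CPM in cIDR against 2.22 to 4.17. With the WT libraries alone the median of these 12 genes was 0.63.

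Secreted factors for vessels and vascular tone followed. Of 13 tested, 7 were higher (53.8%, beside 5.15% of all genes) and 1 lower, with a median of 1.00. VEGFA, the main angiogenic ligand, was 312, 479, 495 and 513 CPM in the 4 batch 2 libraries and 93.1 to 258 CPM (median 174) elsewhere, a log2 fold change of 1.49 ± 0.09. WT was the lowest of the 4 batch 2 libraries and still above every other library. STC2, a secreted glycoprotein that is also an ATF4 target, was 220, 234, 256 and 236 CPM against 49.8 to 76.4, a log2 fold change of 1.84 ± 0.08. The further higher genes were ADM2 (3.37), ANGPTL4 (2.65), PDGFB (1.60), STC1 (1.44) and PGF (1.00). ADM, a vasodilator peptide often read as a low-oxygen marker, overlapped at 1.51 to 5.65 CPM against 0.960 to 3.49 (0.84 ± 0.16). Within each group batch 2 was the highest, with the smallest gap in WT (1.51 CPM against 0.960 to 1.47). It was 4.82 CPM against 1.51 to 2.52 in FL, 4.97 against 2.52 to 3.29 in NCTAD and 5.65 against 2.55 to 3.49 in cIDR. IGFBP3, a binding protein of insulin-like growth factors, was lower (-1.56 ± 0.18). With log2(TPM + 1) the median of the 13 was 0.65.

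Glycolysis differed in part. Of 21 genes of glucose uptake and glycolysis 6 were higher (28.6%, beside 5.15%), 12 lay above the other libraries (57.1%, beside 14.4%), none lay below, and the median was 0.44. The 6 were PFKFB4 (2.23 ± 0.08), PFKP (1.96 ± 0.06), ALDOC (1.83 ± 0.17), the glucose transporter SLC2A3 (1.43), PFKFB3 (1.40) and hexokinase HK2 (1.25). PFKFB3 and PFKFB4 make the sugar phosphate that activates phosphofructokinase, and PFKP is a phosphofructokinase. PFKFB4 stood at 27.7, 35.8, 36.5 and 49.5 CPM in batch 2 and at 5.64 to 10.5 CPM elsewhere. PGK1, an enzyme of the lower pathway, was 941, 978, 1015 and 1181 CPM against 544 to 707, above in all 4 libraries at a log2 fold change of 0.77 ± 0.06. SLC2A1, the main glucose transporter among HIF targets, was 58.3, 102, 82.4 and 108 CPM against 52.0 to 116, a log2 fold change of 0.05 ± 0.12. LDHA, which makes lactate, was 25.6, 27.4, 26.8 and 26.6 CPM against 25.7 to 32.9, a log2 fold change of -0.11 ± 0.05. Both overlapped, as did GAPDH (0.12), PKM (-0.05) and HK1 (-0.02). Within groups, LDHA was lowest in batch 2 in WT, FL and cIDR and not in NCTAD. SLC2A1 was highest in batch 2 in FL (102 CPM against 61.9 to 92.1) and cIDR (108 against 81.6 to 90.4), and lowest in NCTAD (82.4 against 102 to 116). LDHA and GAPDH have near-identical pseudogenes that can share their reads, so their levels are uncertain. For acid handling, CA9, a surface carbonic anhydrase, was higher at 0.521 to 0.739 CPM against 0.0597 to 0.267, and the lactate exporter SLC16A3 was higher by 1.65. SLC16A1, another lactate transporter, lay below (-0.56).

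Collagen-modifying enzymes were higher for 5 of 10 genes (50%, beside 5.15% of all genes), with a median of 1.13. They were LOXL2 (2.80), P4HA2 (1.54), LOXL3 (1.36), PLOD1 (1.22) and LOXL1 (1.05), which hydroxylate or crosslink collagen. LOX (0.94) and P4HA1 (0.91) lay above all other libraries, while P4HB, which also serves as an endoplasmic reticulum chaperone, lay below (-0.36). Of 13 genes of glycogen metabolism 2 were higher (15.4%, beside 5.15%), the phosphorylases PYGL (1.43) and PYGM (1.13). None of the 17 oxygen-dependent histone and DNA demethylases was higher or lower, and KDM5B (0.89) and KDM6B (0.86) showed the largest positive differences.

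The remaining low-oxygen genes, 27 of mixed function, were higher in 13 cases (48.1%, beside 5.15% of all genes), lay above in 21 (77.8%, beside 14.4%) and below in none, with a median of 0.91. NDRG1, a stress-induced regulator of growth, was 109, 210, 161 and 233 CPM in the WT, FL, NCTAD and cIDR libraries of batch 2 and 4.15 to 52.3 CPM (median 23.7) elsewhere, a log2 fold change of 3.30 ± 0.23. DDIT4 was 479, 474, 543 and 576 CPM against 56.4 to 86.6 (median 72.6), a log2 fold change of 2.84 ± 0.08. For both genes the groups do not overlap. PPFIA4 (3.24), MIR210HG (3.06), the host transcript of miR-210, LUCAT1 (2.95), the adenylate kinase AK4 (2.51) and TMEM45A (2.05) were also higher. CXCR4, a chemokine receptor, was 0.894, 8.13, 6.44 and 2.80 CPM against 0.966 to 7.92. It differed by -0.72 with the WT libraries alone and by 0.85 with the transfected libraries. BHLHE40, a repressor of the circadian clock, overlapped over the 16 libraries at 15.9 to 35.0 CPM against 9.42 to 24.0 (0.70 ± 0.06). Within each group its batch 2 library was the highest, at 15.9 CPM in WT against 9.42 to 11 and at 31.7 CPM in FL against 15.7 to 17.3. Over the 6 lists of sensing, mitochondrial sparing, secreted factors, glycolysis, collagen enzymes and other low-oxygen genes, 37 of 96 tested genes were higher, beside 5.15% of all genes. With glycogen metabolism, lactate and acid handling and the demethylases added, the count was 41 of 135. The name hypoxia-like was given from these values, and the batch is called batch 2 throughout.

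**Figure D2:**
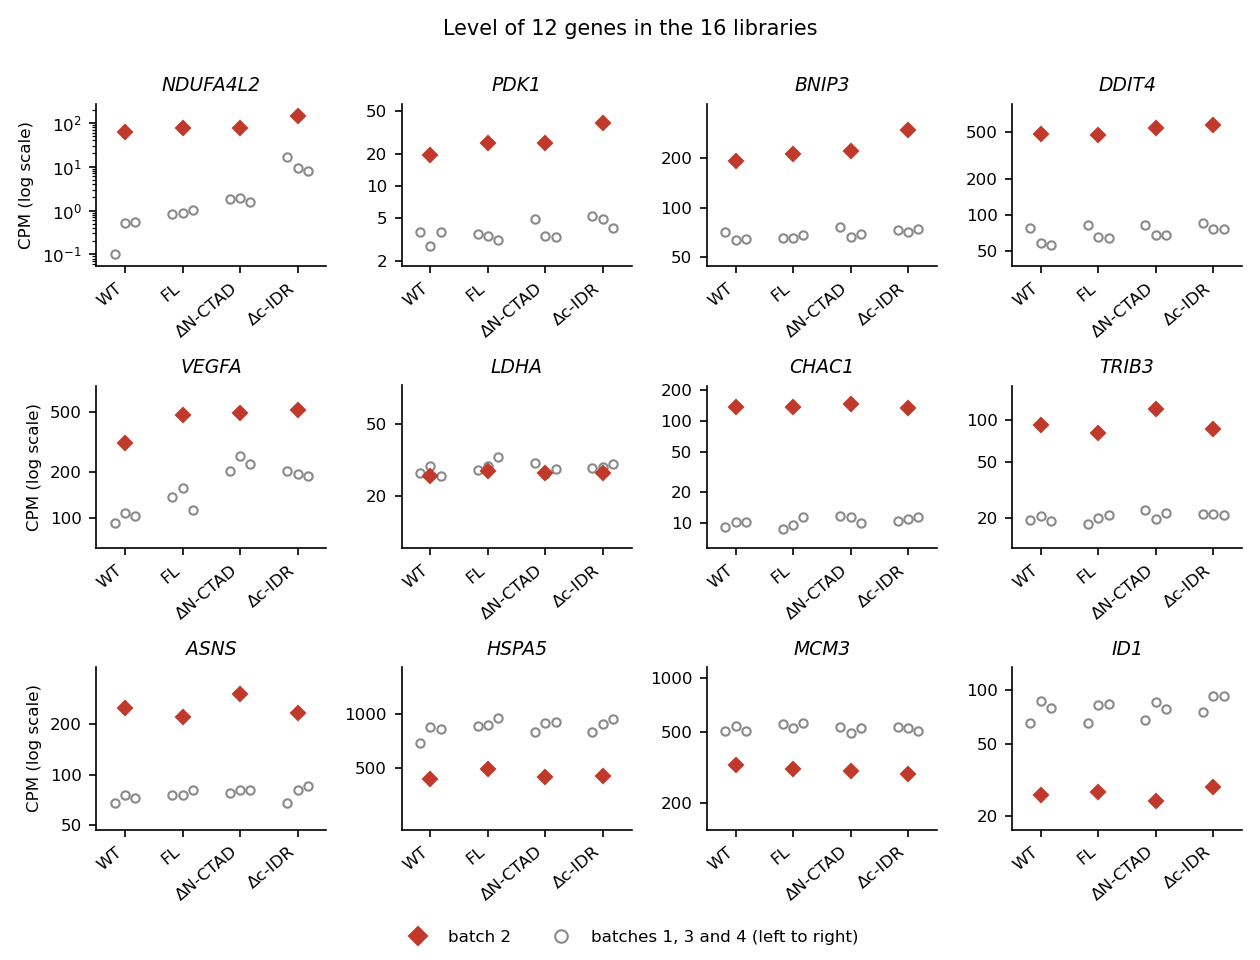
CPM of 12 genes (y axes, log scale) in the 4 groups (x axes), with batch 2 as filled red diamonds and batches 1, 3 and 4 as open circles. NDUFA4L2, PDK1, BNIP3, DDIT4, VEGFA, CHAC1, TRIB3 and ASNS were above all other libraries in each group, LDHA overlapped over the 16 libraries and was below its own group in WT, FL and cIDR, and HSPA5, MCM3 and ID1 were below.

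Targets of ATF4 were the other large group of higher genes. Of 27 tested, 14 were higher (51.9%, beside 5.15% of all genes), 23 lay above (85.2%, beside 14.4%), 1 lay below (ALDH18A1, -0.42), and the median was 1.01. The promoters of CHAC1 and CARS1 are shown because both genes were high in batch 2 and hold TGATGNAAN, read on the opposite strand. They are RefSeq windows of the same kind at chr15:40953221-40953520 (plus strand) and chr11:3057374-3057673 (minus strand), and capitals mark the reverse complement of the motif.
CHAC1: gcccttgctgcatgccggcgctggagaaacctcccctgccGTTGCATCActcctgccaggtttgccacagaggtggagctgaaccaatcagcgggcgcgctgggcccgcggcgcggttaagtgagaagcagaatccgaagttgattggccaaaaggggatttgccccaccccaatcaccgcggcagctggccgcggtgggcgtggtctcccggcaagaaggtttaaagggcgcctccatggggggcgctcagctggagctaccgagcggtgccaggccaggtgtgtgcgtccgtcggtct
CARS1: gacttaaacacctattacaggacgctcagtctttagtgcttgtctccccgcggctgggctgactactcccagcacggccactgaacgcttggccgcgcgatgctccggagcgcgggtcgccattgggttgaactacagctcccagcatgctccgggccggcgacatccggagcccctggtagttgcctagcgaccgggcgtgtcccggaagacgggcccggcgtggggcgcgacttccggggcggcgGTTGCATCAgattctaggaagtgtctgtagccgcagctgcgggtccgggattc
The capitals begin 210 bases before the start in CHAC1 and 3 bases before it in CARS1. Searched on both strands, TGATGNAAN occurred in 6 of 23 promoters found for the 27 ATF4 targets (26.1%), in 4 of 12 for members called higher and in 2 of 11 for the others. It occurred in 3.67% of all 27305 promoters, which again describes the table.

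CHAC1, which degrades glutathione, was 138, 137, 145 and 135 CPM in the WT, FL, NCTAD and cIDR libraries of batch 2 and 8.83 to 11.9 CPM (median 10.4) elsewhere, a log2 fold change of 3.72 ± 0.06. The 4 libraries of batch 2 were close to each other (139 ± 4.27, mean ± SD, n = 4), whatever the construct. TRIB3, a pseudokinase that restrains ATF4, was 91.6, 80.8, 120 and 85.6 CPM against 18.0 to 22.9, a log2 fold change of 2.20 ± 0.06. ASNS, asparagine synthetase, was 249, 222, 306 and 235 CPM against 67.2 to 85.2, a log2 fold change of 1.72 ± 0.06. SESN2, which restrains mTORC1 when leucine is short, was 91.0, 86.1, 96.6 and 84.5 CPM against 15.6 to 22.9, a log2 fold change of 2.12 ± 0.07. NCTAD was the highest of the 4 for TRIB3, ASNS and SESN2. The cystine transporter SLC7A11 (2.15), the cytokine GDF15 (2.86), the transcription factors DDIT3 (1.5), CEBPB (1.20) and ATF3 (1.10), and the serine and glycine enzymes PSAT1 (1.16) and SHMT2 (1.01) were higher. FGF21, a hormone induced by ATF4, had 1.31 to 2.09 CPM in batch 2 and 0 to 0.0812 CPM elsewhere. ATF4 itself was 694, 682, 717 and 712 CPM against 402 to 542, above in all 4 libraries at a log2 fold change of 0.67 ± 0.07. STC2 and DDIT3 are counted both here and among the low-oxygen genes.

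Of 20 cytosolic aminoacyl-tRNA synthetases, which load amino acids onto tRNA, 1 was higher (5%, beside 5.15% of all genes) and 11 lay above (55%, beside 14.4%). CARS1 was the higher one (1.10 ± 0.05, 96.3 to 112 CPM against 44.9 to 52.1), followed by AARS1 (0.81), SARS1 (0.66) and GARS1 (0.65). FARSA (-0.48), HARS1 (-0.25), VARS1 (-0.24) and RARS1 (-0.22) lay below. Chaperones went the other way: of 20 genes of the endoplasmic reticulum chaperone and unfolded protein response list none was higher, 12 lay below (60%, beside 14.6% of all genes and 34.3% at 6 log2 CPM or more) and the median was -0.42. HSPA5 (BiP), the main chaperone of that compartment, was 435, 492, 444 and 448 CPM against 686 to 946, a log2 fold change of -0.90 ± 0.07. CRELD2 (-0.94), DNAJC3 (-0.71), CALR (-0.68) and HYOU1 (-0.65) lay below in the same way. The members above were EDEM1 (0.95), XBP1 (0.43) and HERPUD1 (0.42). Among 14 heat shock genes 9 lay below (64.3%) and 1 above (BAG3, 0.28), with a median of -0.29. HSPA1A, an inducible HSP70, was lower, at 32.3, 35.9, 32.0 and 30.7 CPM against 63.1 to 82.2 (-1.12 ± 0.06). HSPA1A and HSPA1B (-0.91) are near-identical copies, so the division of reads between them is uncertain.

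Lying below was common among well-expressed genes: 14.6% of all genes did so, 21.5% of those at 1 log2 CPM or more and 34.3% of those at 6 or more. Most genes of DNA replication lay below in batch 2, mostly by less than 2-fold. Of 37 tested, 29 lay below all other libraries (78.4%) and none above, 1 was lower by the 2-fold rule, the median was -0.41 and the range -1.05 to 0.18. In bulk RNA, fewer cells in S phase and less of these messages per cell cannot be told apart. MCM3, a subunit of the replicative helicase, was 326, 311, 301 and 292 CPM against 490 to 556, a log2 fold change of -0.77 ± 0.05. CCNE2, a cyclin of the start of S phase, was 11.2, 11.3, 12.3 and 11.5 CPM against 16.5 to 29.6 (-1.05 ± 0.09). FEN1 (-0.79), GINS2 (-0.77), MCM4 (-0.73), MCM5 (-0.73), TYMS (-0.70) and RRM2 (-0.65) were of similar size. Of 32 mitotic genes 14 lay below (43.8%) and 2 above, with a median of -0.16, and MKI67 (-0.05) and CDK1 (-0.06) overlapped. Ribosome biogenesis was like replication: 19 of 24 genes lay below (79.2%), none above, and the median was -0.35. NOP2, an rRNA methyltransferase, was 62.6, 63.1, 59.4 and 59.7 CPM against 93.1 to 124 (-0.80 ± 0.06). The 71 cytosolic ribosomal proteins all overlapped, with log2 fold changes from -0.09 to 0.28.

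Regulators of the cell cycle differed gene by gene. CDKN1A (p21), an inhibitor of cyclin-dependent kinases, was 70.0, 69.7, 83.9 and 62.4 CPM in batch 2 and 20.8 to 32.0 CPM elsewhere, a log2 fold change of 1.54 ± 0.09. Cyclin G2 (CCNG2, 1.13) and CDKN1C (2.69, at 0.633 to 3.17 CPM) were also higher among 14 G1 genes (21.4%, beside 5.15% of all genes). Cyclin D1 (CCND1, -0.54), CDKN2C (-0.68) and CDK4 (-0.30) lay below. Of 19 p53 targets 4 were higher (21.1%), namely GDF15, CDKN1A, TNFRSF10B and BBC3, and GDF15, TNFRSF10B and BBC3 also answer to the ATF4 route. TP53I3 (-1.13) was lower, and MDM2 (-0.37) and AEN (-0.81) lay below. MYCN stood at 2817, 2850, 2762 and 2942 CPM against 2594 to 3411, a log2 fold change of -0.02 ± 0.09 that lay between -0.08 and 0.09 over the alternatives. MYC was weakly expressed and lower, at 0.0880 to 0.283 CPM against 0.485 to 2.55. Of 13 tested genes of the MYC network it was the only lower member (7.69%, beside 0.635% of all genes). MYCL (1.89) was the only higher member (7.69%, beside 5.15%).

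Messages for respiration showed small differences. Of 37 nuclear genes of complex I, 8 lay below (21.6%) and none above (median -0.15), near the 21.5% of genes at 1 log2 CPM or more. The share of genes below was 34.3% at 6 log2 CPM or more. Of 38 genes of complexes II to V, 5 lay below (13.2%) and none above (median -0.07, which was 0.002 with library totals and 0.02 with the WT libraries alone). All 13 mitochondrially encoded mRNAs overlapped. Their mean shift was 0.44 in FL against -0.19 in WT, -0.53 in NCTAD and -0.39 in cIDR, so FL was opposite in sign to the other 3. The FL library of batch 4 stood apart here, with 2.55% of its counts from mitochondrial transcripts against 7.38 to 8.87% in the other FL libraries, and without it the FL shift was -0.17. Of 21 citric acid cycle genes 10 lay below (47.6%, beside 14.6% of all genes and 34.3% at 6 log2 CPM or more), among them pyruvate carboxylase PC (-0.62), and IDH1 lay above (0.90). Cholesterol synthesis was below for 9 of 24 genes (37.5%, beside 34.3% of genes at 6 log2 CPM or more) and above for 1 (median -0.21, which was -0.03 without batch 1).

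Targets of BMP and TGF-beta signalling were the list with the most lower genes. Of 12 tested, 6 were lower (50%, beside 0.635% of all genes), 8 lay below (66.7%, beside 14.6% of all genes and 21.5% at 1 log2 CPM or more), none lay above, and the median was -0.97, or -0.40 with log2(TPM + 1). ID1, a helix-loop-helix inhibitor of differentiation and a direct BMP target, was 26.0, 27.3, 24.3 and 29.1 CPM against 65.6 to 92.7 (median 81.4), a log2 fold change of -1.58 ± 0.09. ID2 (-1.22), ID3 (-1.17), the inhibitory SMAD6 (-1.17) and the pseudoreceptor BAMBI (-1.0) were lower too. For SMAD6 batch 1 lay between, at 31.4 to 36.0 CPM, with batch 2 at 20.2 to 24.5 and batches 3 and 4 at 51.1 to 63.1. ID4 was lower near the detection limit, at 0.0202 to 0.117 CPM against 0.163 to 0.597. Of the metal-binding genes, MT2A (-1.29), MT1X (-3.02) and the zinc exporter SLC30A1 (-1.22) were lower among 4 tested (75%, beside 0.635% of all genes). TFRC, the transferrin receptor for iron uptake, was 215, 223, 202 and 227 CPM against 357 to 532, a log2 fold change of -1.14 ± 0.08, and it was the only member of 13 iron genes called either way. Immediate early genes were mixed, with 4 of 26 higher (15.4%, beside 5.15% of all genes) and 3 lower (11.5%, beside 0.635%). EGR1 (1.18), IER3 (2.33), DUSP6 (1.32) and ATF3 were higher, and KLF2 (-1.23), KLF4 (-1.72) and MYC were lower. FOS, the first to respond to serum, lay below (-0.97). TXNIP, a glucose-sensing arrestin, was higher (1.12).

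Transcription factors that mark adrenergic neuroblastoma cells such as HAND2 and PHOX2A were expressed in all 16 libraries. Of 20 adrenergic regulators 1 was higher (5%, beside 5.15% of all genes) and none lower. It was INSM1, a zinc finger repressor of neuroendocrine cells, at 10.5, 12.8, 13.2 and 13.0 CPM against 1.08 to 1.73, a log2 fold change of 3.19 ± 0.10. HAND2 (0.31) and PHOX2A (0.02) overlapped, while TBX2 (-0.87), GATA3 (-0.80), HAND1 (-0.66) and GATA2 (-0.40) lay below. Of the 20, 5 lay above (25%, beside 14.4% of all genes) and 7 below (35%, beside 14.6%), with a median of 0.13. TH, the rate-limiting enzyme of catecholamine synthesis, was 5.68, 9.36, 10.2 and 10.1 CPM against 0.856 to 3.60, a log2 fold change of 2.14 ± 0.14. SLC6A2, the noradrenaline transporter, lay below (-0.81), and DDC (0.17) and DBH (0.69) overlapped. Of 15 mesenchymal markers NOTCH3 (2.40) and COL1A1 (1.31) were higher (13.3%, beside 5.15% of all genes) and SNAI2 (-1.20) lower (6.67%, beside 0.635%). Without the fold limit 3 lay above (20%, beside 14.4%) and 3 below (20%, beside 14.6%), with a median of 0.16. The summed level of all 22 listed genes was 541 to 555 CPM in batch 2 and 558 to 665 CPM elsewhere. THY1, the most expressed member, reached 275 CPM in batch 2 and 388 CPM elsewhere, and PDGFRB, the next, 134 and 109 CPM. Markers of other cell types were summed over each list. The 6 endothelial markers summed to 1.28 to 2.36 CPM in batch 2 and 0.125 to 1.02 CPM elsewhere, mainly VWF and CDH5, which were both called higher. The 6 epithelial markers summed to 2.13 to 3.37 CPM against 0.768 to 1.72, with KRT5 at 0 in all libraries. KRT8 (1.57) and KRT18 (1.58) were called higher, 2 of 3 tested (66.7%, beside 5.15% of all genes). The 9 immune markers summed to 1.56 to 2.09 CPM against 1.08 to 2.04, and HBB was at 0. The 9 Schwann and glial markers summed to 12.9 to 15.7 CPM against 9.97 to 14.5. The part of other cells in these values was not tested.

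Outside these lists, the genes that differed most at 1 log2 CPM or more were of mixed function. NXPH4 (4.69), a neurexophilin, INHBE (4.34), an activin subunit and ATF4 target, CABP7 (3.73), AKNA (3.24), the water channel AQP1 (3.02) and CDC42EP1 (2.90) were higher beside NDUFA4L2, CHAC1, ADM2, NDRG1, PPFIA4 and INSM1. On the lower side NPAS4 (-2.89), an activity-induced transcription factor of neurons, was 0.335, 0.627, 0.525 and 0.387 CPM against 2.14 to 5.38. PLXNA4, a semaphorin co-receptor in axon guidance, was 7.74, 12.3, 10.4 and 8.80 CPM against 23.7 to 53.1 (-1.85 ± 0.19). EDNRA, an endothelin receptor, was 8.77, 7.62, 6.34 and 7.96 CPM against 14.8 to 35.5 (-1.81 ± 0.21). CNGB1, MDGA1, PARM1, LINC02593, NSG1, ITGA11, SAMD11 and the neuropeptide gene ADCYAP1 had log2 fold changes of -2.22 to -1.67. Batch 1 shared part of the difference for many of these genes. In 8 of these 11 lower genes batch 1 lay under batches 3 and 4 in every group, as it did for 46 of the 124 lower genes (37.1%) and 7.75% of all genes tested. ITGA11 in FL, for example, was 4.13 CPM in batch 2, 5.46 in batch 1 and 15.2 and 17.5 in batches 3 and 4. EDNRA in FL was 7.62, 14.8, 30.6 and 32.5 CPM in the same order. Among the 1006 higher genes, batch 1 lay over batches 3 and 4 in every group for 11.1%, beside 9.31% of all genes.

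The choice of batch 2 rested on its 4 libraries standing apart together, so a shift in common is a description. Whether its size differed between the groups was tested. The shift is the log2 CPM of the batch 2 library of a group minus the mean of the other 3 libraries of that group. Across the 12929 genes at 1 log2 CPM or more the shifts of any pair of groups correlated with r of 0.856 to 0.912, and over all 19530 genes with r of 0.619 to 0.712. These are correlations across genes, which are not independent, and the 4 batch 2 libraries share their batch. The untransfected library showed the shift as well. For the ATF4 list the mean shift was 1.35 in the WT library, 1.25 in FL, 1.42 in NCTAD and 1.12 in cIDR. That of the mitochondrial sparing genes was 1.60, 1.5, 1.29 and 1.31. The means of DNA replication were -0.33, -0.43, -0.48 and -0.45, and those of the BMP and TGF-beta targets were -0.62, -0.43, -0.89 and -0.72. Of the 48 lists, some had mixed signs, among them the mitochondrially encoded mRNAs, the lysosome list and the immediate early genes. The mean shift over all genes tested was 0.13 to 0.14 in each group.

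**Figure D3:**
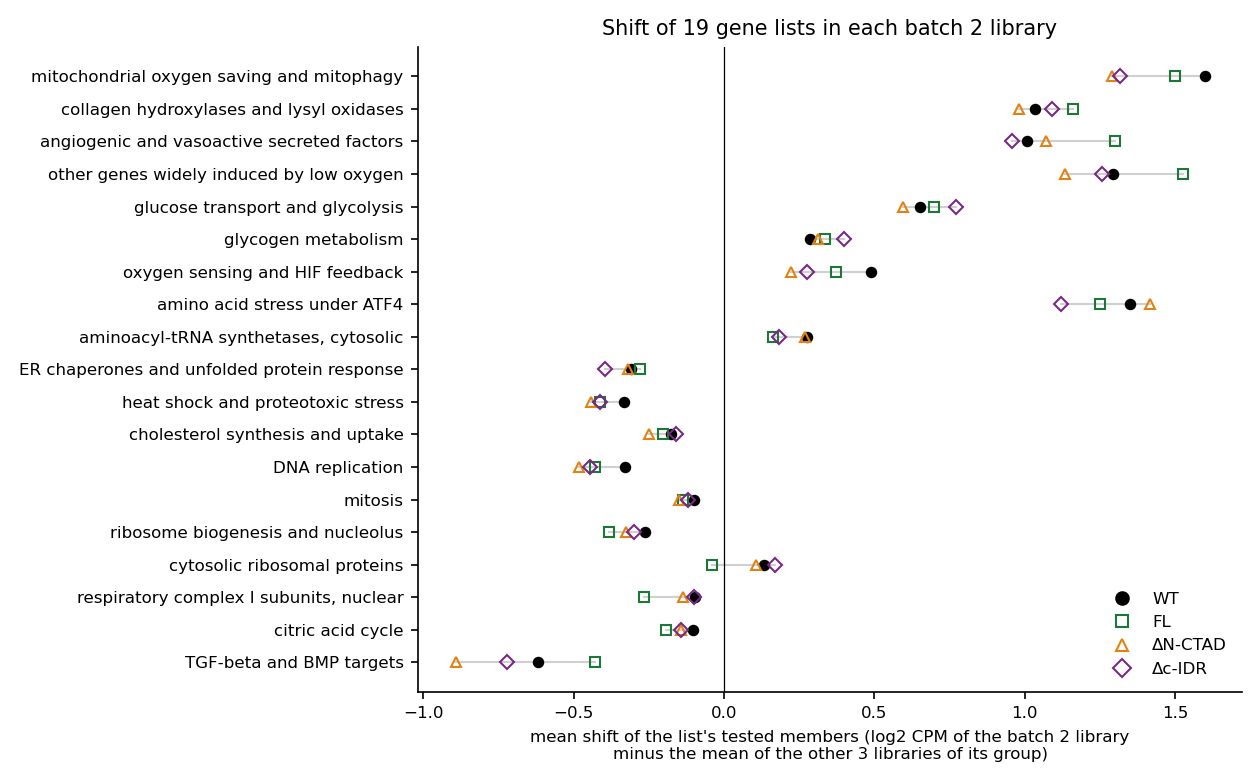
Mean shift of the tested members of 19 gene lists (y axis) in each batch 2 library against the other 3 libraries of its group (x axis, log2 CPM), with 1 symbol per group. The untransfected WT library (filled circles) has the sign of the transfected ones, for example 1.35 for the ATF4 list and -0.33 for DNA replication, except for the ribosomal proteins, where FL lies below 0 and the other 3 above it.

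The difference of the shift from WT was tested with edgeR's quasi-likelihood test of the interaction and Benjamini-Hochberg adjustment over 19530 genes. Each group has 1 batch 2 library, which is assumed to vary like the other libraries, so the test compares these libraries and not repeated batches. It called 3 genes for FL (0.0154%), 5 for NCTAD (0.0256%), 4 for cIDR (0.0205%) and 3 for the 3 constructs together (0.0154%). At an unadjusted p under 0.05 there were 275, 208, 199 and 200 genes. With the batches as a replicate block the numbers called were 1, 6, 3 and 5. The calls with counts in every library were NDRG1 and TRIM29, both for NCTAD, for cIDR and for the constructs together. PTMAP5, LDHAP4, SCARNA13, ISY1-RAB43 and a gene listed as Telomerase-vert were called too, and each had a count of 0 in 1 or 2 libraries. With the block PTMAP5 stayed called throughout and LDHAP4 for NCTAD but not for FL. SCARNA13, ISY1-RAB43 and Telomerase-vert were not called with it. PTMAP5 and LDHAP4 are pseudogenes with near-identical parents and ISY1-RAB43 is a readthrough transcript. Their counts are uncertain, and no fold is given.

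NDRG1 was 109 CPM in batch 2 of WT and 4.24, 4.80 and 4.15 CPM in batches 1, 3 and 4, a shift of 4.62. In FL it was 210 CPM against 17.4, 19.2 and 20.3 (shift 3.47), in NCTAD 161 against 36.8, 30.5 and 27.2 (2.37), and in cIDR 233 against 52.3, 38.5 and 38.4 (2.45). Outside batch 2 the 4 groups did not overlap and lay in the order WT, FL, NCTAD, cIDR. Within batch 2 WT was also the lowest, and NCTAD lay below FL. The shift was smaller than in WT by 2.27 ± 0.27 in NCTAD (edgeR adjusted p 0.00954) and by 2.20 ± 0.27 in cIDR (edgeR adjusted p 0.0205). For the 3 constructs together the edgeR difference was -1.88 ± 0.22 (adjusted p 0.00827), and for FL it was -1.16 ± 0.27 (adjusted p 1). The FL difference was called in 1 of 23 alternatives, with no low-count filter (edgeR adjusted p 0.0283, and up to 1 over the others). Over the 23 alternatives the difference for the constructs together lay between -1.97 and -1.33 and was called in 18. It was not called by limma on TPM with either pseudocount, without batch 3, without batch 4 or without WT replicate 1 (adjusted p from 4.50e-11 to 0.64 over the 23). For cIDR it was also not called without WT replicate 4. The NCTAD difference was called in 19 of 23, and not on TPM with either pseudocount, without batch 3 or without batch 4.

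TRIM29, a member of the TRIM protein family, was 19.1 CPM in batch 2 of WT against 1.32, 2.24 and 1.32, and 92.1 CPM in FL against 16.4, 16.2 and 18.7. In NCTAD it was 40.1 CPM against 19.2, 17.7 and 18.3, and in cIDR 71.8 against 34.5, 26.2 and 27.8. Each group was highest in batch 2. The shift was largest in WT (3.57), followed by FL (2.43), cIDR (1.29) and NCTAD (1.12). It was smaller than in WT by 2.44 ± 0.31 in NCTAD (edgeR adjusted p 0.0133), by 2.28 ± 0.31 in cIDR (adjusted p 0.0348) and by 1.95 ± 0.25 in the constructs together (adjusted p 0.0185). With the replicate block the cIDR difference was not called (adjusted p 0.0539, and 3.79e-10 to 1 over the alternatives). It was called in 13 of 23 alternatives. It was lost also without batch 1, without batch 4, on TPM with either pseudocount, and without WT replicate 1, WT replicate 4, FL replicate 3, NCTAD replicate 4 or cIDR replicate 4. The difference for the constructs together was called in 17 of 23 alternatives, from -2.29 to -0.90. It was not called without batch 1, without batch 4, without WT replicate 1, without WT replicate 4 or on TPM with either pseudocount. The NCTAD difference was called in 20 of 23, and not without batch 4 or on TPM with either pseudocount.

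EPAS1 and CABP7 were called with the replicate block and not in the fit without it. For EPAS1, whose levels are given above, the difference for the constructs together was -1.96 ± 0.44 without the block (edgeR adjusted p 0.9999) and -1.92 ± 0.20 with it (adjusted p 0.0061). It was called in 3 of 23 alternatives (adjusted p 0.000209 to 1). CABP7, a calcium-binding protein, was 23.0 CPM in batch 2 of WT against 0.772 to 0.988, 41.5 in FL against 2.99 to 3.70, 38.3 in NCTAD against 3.86 to 5.16 and 46.4 in cIDR against 3.55 to 3.61. Its difference was -1.24 ± 0.21 (edgeR adjusted p 0.196), and -1.24 ± 0.16 with the block (adjusted p 0.036), and it was called in 4 of 23 alternatives (adjusted p 0.00458 to 1). For CXCR4 the shift was -0.66 in WT and 1.65 in FL, a difference of 2.40 that was not called (edgeR adjusted p 1).

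**Figure D4:**
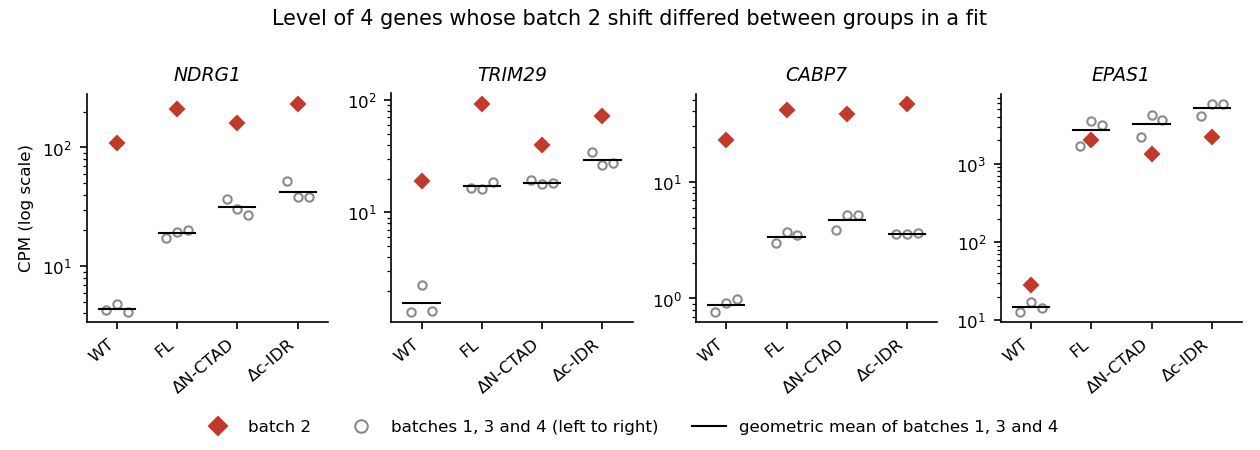
CPM of NDRG1, TRIM29, CABP7 and EPAS1 (y axes, log scale) in the 4 groups (x axes), with batch 2 as red diamonds, batches 1, 3 and 4 as open circles and their geometric mean as a line. The gap between diamond and line is widest in WT for NDRG1, TRIM29 and CABP7, and EPAS1 is below the line in FL, NCTAD and cIDR.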

How the data were processed

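Per the labels' protocols, each stranded poly(A) library used 250 ng of RNA and 13 cycles of PCR. The submitters' processing notes name fastp, STAR, Salmon, featureCounts and GRCh38. Their versions, settings and annotation are not given in the sources used here. The authors deposited a table of estimated counts (63187 genes, of which 15.5% of the values were not whole) and a table of TPM (transcript abundance scaled to a fixed total) for the same 16 libraries. The share of values not whole was 16.3 to 16.7% in batch 2 and 14.5 to 15.9% in the other batches. The EPAS1 count holds both the cells' own message and the transfected forms.

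The members and gene lists were chosen with earlier results of these data known. The deposited estimated counts were rounded and filtered with edgeR 4.0.16 (filterByExpr, R 4.3.3), which left 19530 genes, and scaled by TMM. The scaling factors were 1.028 to 1.054 in batch 2 and 0.927 to 1.026 in the other batches, with no overlap. Batch 2 was described with a fit of group and batch 2 (residual df 11) and log2 CPM with a prior count of 2. The interaction of group and batch 2 was tested with edgeR's quasi-likelihood test (residual df 8, adjusted p under 0.05). A check on simulated data came before it, and its result is not given here. The deposited TPM entered alternatives with limma 3.58.1, and DESeq2 1.42.0 was another. The labels give the replicate number as a batch, so it pairs the libraries across groups. Across genes, deviations from the group means had a mean correlation of 0.308 (0.0674 to 0.712) between libraries of the same batch and of -0.0945 (-0.384 to 0.295) between batches. The mean r was 0.197, 0.659, 0.206 and 0.17 in batches 1 to 4. The labels do not say that libraries of a group came from separate cultures, so p-values measure the spread between these libraries, which may be technical. No pair of libraries of a group differed by as little as sampling noise (chi-square per degree of freedom at least 7.24). Genes were named by rule: the 12 most higher and 12 most lower at a mean of 1 log2 CPM or more, up to 6 called members of each of 48 lists, a set of HIF pathway genes with MYCN and TFRC, and up to 5 genes per interaction. List members named though not called, and called members beyond that number, were chosen after their values were seen. A few genes that the rule names are not reported here. Promoters are from a RefSeq table and GC content is from GENCODE 29 transcripts of GRCh38, which may differ from the annotation of the deposited tables.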

Additional observations from a re-analysis of the deposited data

Results flagged for a closer look

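Among the 4 batch 2 libraries, 1 stood far from the other 3 (Dixon's gap over range past its critical value) for 9 of 126 named genes, 1 of 48 lists and none of 4 library measures. Chance flags about 1 in 20 such groups. The cIDR library was highest for NDUFA4L2 (142.7 CPM), PFKP (55.19 CPM) and HIF3A (4.70 CPM), and lowest for DUSP6 (18.59 CPM). The NCTAD library was highest for AKNA (55.3 CPM) and CDC42EP1 (13.93 CPM) and lowest for PARM1 (3.17 CPM). The WT library was lowest for VEGFA (312.2 CPM) and INSM1 (10.52 CPM). The mean shift of the tested immune markers was 0.5499 in cIDR, from 2 genes near the detection limit.

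The shift of batch 2 differed from that of WT for 15 combinations of gene and construct, with adjusted p-values from edgeR's interaction test over all genes. For NDRG1 the adjusted p was 0.009535 in NCTAD, 0.0205 in cIDR and 0.008269 for the constructs together. For TRIM29 it was 0.01334, 0.03478 and 0.01848. PTMAP5 had 0.0001442 in FL, 5.193e-05 in NCTAD, 0.0001193 in cIDR and 3.994e-05 for the constructs together, with no count in batch 2 of WT. LDHAP4 had 0.02444 in FL and 0.009535 in NCTAD. SCARNA13 had 0.03181 in NCTAD. Both had no count in the WT and cIDR libraries of batch 2. Telomerase-vert had 0.03135 in FL, with no count in batch 2 of FL, and ISY1-RAB43 had 0.04897 in cIDR, with no count in batch 2 of cIDR.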

How the results depend on the processing

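The 1006 higher genes became 642 with at least 10 counts in every library, 312 with log2(TPM + 1), 1799 with a 1.5-fold limit and 330 at 1 log2 CPM or more. The 124 lower genes became 37 with log2(TPM + 1), 330 without the overlap condition, 540 with a 1.5-fold limit and 78 at 1 log2 CPM or more. Leaving out single libraries gave 1013 to 1146 higher genes. For the difference of the shift from WT (3 genes for FL, 5 for NCTAD, 4 for cIDR, 3 for the constructs together), no low-count filter gave 14, 28, 19 and 17 genes and DESeq2 gave 5, 9, 10 and 11. At least 10 counts in every library gave 0 for FL, 2 for NCTAD and 2 for cIDR. At 1 log2 CPM or more there were 1 for FL and 3 for NCTAD. log2(TPM + 1) gave 2 for NCTAD, 1 for cIDR and 1 for the constructs together, and log2(TPM + 0.1) gave 3 for NCTAD and 1 for cIDR. Without batch 1 there was 1 for FL, without batch 3 there were 1 for FL and 2 for NCTAD, and without batch 4 there were 1 for NCTAD and 2 for cIDR. Leaving out single libraries gave 1 to 4 for FL, 4 to 8 for NCTAD, 1 to 5 for cIDR and 1 to 5 for the constructs together. With the batches as a replicate block, which pairs the libraries across groups, there were 1014 higher and 120 lower genes and 1 for FL, 6 for NCTAD, 3 for cIDR and 5 for the constructs together. The block changed the counts for FL and for the constructs together by over 1.5 times, and the rest by less. Among single genes named from the interaction, 406 values kept their side of the threshold, 34 lost the call and 20 gained it.

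Of 1438 alternative list medians, 55 had another sign than the main one, in 10 lists whose own medians lay between -0.14 and 0.29. Of the 10, 3 were lactate and acid handling (16 settings, 0.00159 to 0.0557), immune markers (17 settings, 0.0123 to 0.667) and complexes II to V (3 settings, 0.00213 to 0.0180). The MYC network (-0.02) gave 0.0207 with no filter, 0.0454 with at least 10 counts in every library, 0.0889 without batch 1, 0.0489 with library totals and -0.0510 to 0.000521 without single libraries. Mesenchymal markers gave -0.214 with no filter, -0.00103 with at least 10 counts, -0.0509 with log2(TPM + 1), -0.113 with log2(TPM + 0.1) and -0.0799 with the WT libraries only. Iron genes gave 0.0135 with log2(TPM + 1), 0.0307 with log2(TPM + 0.1) and 0.00310 without batch 4. Notch genes gave 0.00387 with log2(TPM + 1), 0.0445 with log2(TPM + 0.1) and 0.0121 with the WT libraries only. G1 genes gave -0.00353 with at least 10 counts, and interferon genes -0.0427 and granins -0.130 with no filter. The cause of these moves was not tested. The shift, averaged over the 4 groups, had a median over all genes of 0.107 with library totals and 0.0369 with TMM. This is not the median of the fitted log2 fold change, which was 0.03. Fits at 1 log2 CPM or more and with library totals were chosen after seeing the data.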
